A study of Mus musculus with 6 samples.

Results

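The 54 genes described here encode the actin cytoskeleton of mouse immature dendritic cells: actin itself, the proteins that bind its monomers, the Arp2/3 complex and its activators, small GTPases with their exchange factors and kinases, filament severing, capping and bundling proteins, membrane linkers and non-muscle myosin II. They were chosen by gene symbol from a fixed list, and all 54 were found among the 22899 genes of the deposited expression table. Male C57BL/6 mice of 7 weeks gave the bone marrow, which was cultured for 7 days with GM-CSF at 20 ng/ml plus 10 ng/ml IL-4, and suspension cells were then selected with a CD11c kit, CD11c being an integrin subunit carried by dendritic cells. Both groups share this origin: 3 libraries are of static cultures and 3 of cultures that a cone-plate device, in which a rotating cone drags the medium over the dish, had placed under fluid shear stress (FSS) of 10 dyn/cm2 for 3 h. Libraries are numbered 1 to 3 in each group. Whether each number stands for separate mice or cultures is not said in the labels, so p-values measure the spread between these libraries, which may be technical.

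Actin exists as single molecules and as filaments, and cells work by moving it from one form to the other. Profilin feeds monomers to growing ends, thymosins hold them in reserve, the Arp2/3 complex starts branches where WASP-family proteins recruit it, formins extend straight filaments, cofilin cuts them and capping protein stops them. Small GTPases such as Cdc42, Rac1 and Rhoa decide which of these steps runs where. Immature dendritic cells use this machinery to sample their surroundings by engulfing fluid, and maturing ones use it to extend processes and to crawl to lymph nodes.

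The deposited values carry no unit and were taken as FPKM, a fragment count divided by transcript length and sequencing depth, a scale corrected for transcript length on which genes can be compared. Each library summed to between 413898 and 470596 FPKM, and 10390 to 10959 genes reached 1 FPKM; read depth is unknown. Dendritic cell genes fixed for the purpose were abundant in every library (Cd74 at 4178 to 5319 FPKM, Itgax, which encodes CD11c, at 397 to 599 FPKM), except Flt3 and Cd209a, which stayed under 1 FPKM. Summed over each list, 8 neutrophil genes gave 290 to 521 FPKM in static and 257 to 433 FPKM in FSS libraries, and 6 macrophage genes 419 to 506 and 494 to 613 FPKM. Single markers moved between the groups. With the replicate number as a block (described below) 3 of 7 dendritic cell genes tested fell (Itgax, Zbtb46 and Ccr7) and none rose. With median-ratio scaling added, Zbtb46 and Ccr7 fell and Itgax did not pass (-0.094 log2, limma adjusted p = 0.514). With the block 2 of 6 macrophage genes rose (Mertk and Adgre1) and 1 fell (Marco), while after scaling 4 rose and 1 fell. Of all genes 25.1% fell and 7.73% rose with the block, and 16.3% and 19.6% after scaling. Mertk, a receptor for engulfing dead cells, stood at 20.3, 21.4 and 12.3 FPKM in static and 57.3, 49.8 and 21.97 FPKM in FSS replicates 1 to 3, without overlap (limma adjusted p = 0.164, 0.00166 with the block). Of the neutrophil genes S100a8 fell with the block and none rose, while 1 fell and 2 rose after scaling. The part of these markers in the actin results was not tested. A list for mast cells and basophils reached at most 14.7 FPKM in any library, and those for T and NK, B, erythroid and stromal cells at most 5.91 FPKM. Fewer cells of a type and less RNA per cell cannot be told apart in such bulk samples. Both libraries numbered 3 stood apart from the other four, and the values of this difference are given below beside the genes they touch.

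Actin cytoskeleton RNAs were lower under FSS in most of the list, by a modest amount that depended on how the libraries were scaled. The 54 genes together held 6.17%, 6.29% and 5.90% of all summed FPKM in static replicates 1 to 3 and 4.70%, 5.44% and 5.32% in FSS replicates 1 to 3. The 3 static shares were all above the 3 FSS shares. Actb, Actg1 and Tmsb4x together held 3.85%, 3.83% and 3.36% in static and 2.78%, 3.25% and 2.92% in FSS libraries, without overlap. The other 51 genes held 2.32%, 2.46% and 2.54% in static and 1.93%, 2.19% and 2.39% in FSS libraries. Their share was also lower in each pair, but the groups overlapped. The median member stood 0.25 lower on the log2(FPKM + 1) scale, against 0.12 lower for the median of all 10899 genes tested. In pairs of the same number, FSS minus static, the median member gave -0.33, -0.19 and -0.29, and the median of all genes -0.079, -0.069 and -0.22. Of the 54 genes, 42 were lower in all 3 pairs and 1 (Arpc1b) was higher in all 3, where 47.3% of all genes were lower and 17.1% higher in all 3 pairs.

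**Figure D1:**
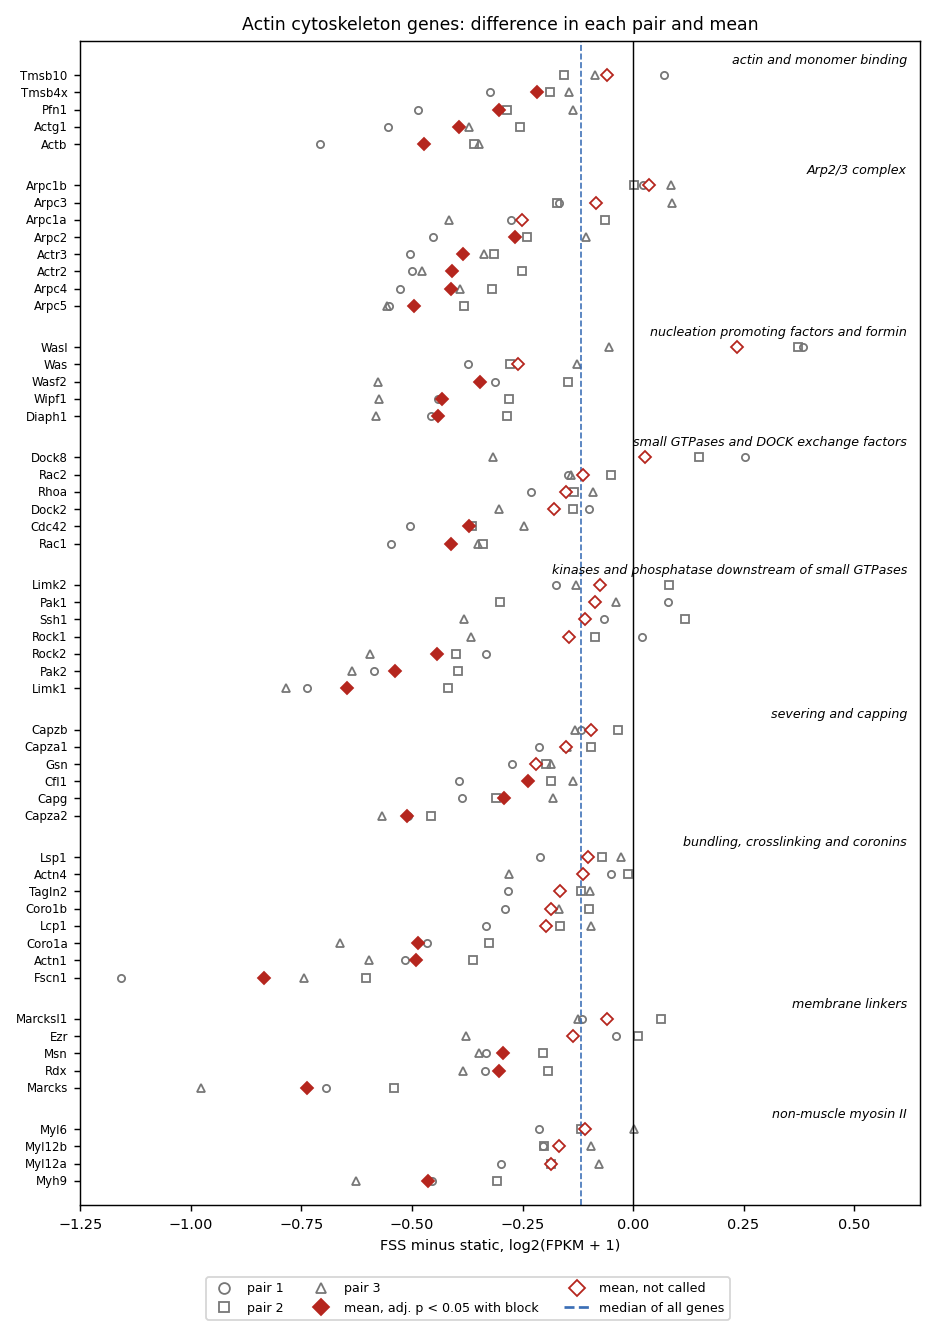
Difference between FSS and static libraries of the same replicate number for each of the 54 genes, on the log2(FPKM + 1) scale (horizontal axis), grouped by role. Grey symbols are the 3 pairs, diamonds their mean, filled where the fit with the replicate number as a block gave an adjusted p under 0.05, and the dashed line is the median of all genes tested (-0.12). Nearly all diamonds lie to the left of 0 and 27 are filled.

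How many single genes passed a test depended on whether the replicate numbers were used as pairs. All 54 genes passed the filter on low values. Compared as plain groups with limma, none of the 54 passed an adjusted p of 0.05 in either direction, where 0.862% of all genes were lower and 0.853% higher; at an unadjusted p under 0.05, 12 were lower and none higher (13.8% and 4.27% of all genes). With the replicate number as a block, 27 of 54 (50%) fell and none rose, against 25.1% of all genes falling and 7.73% rising. The block is a reading taken from these data, since libraries of one number varied together, and not from the labels. Scaling each library by its median ratio to the others moved the median of all genes up by 0.14, and with that scaling and the block 12 of the 54 fell (22.2%) and 1 rose, against 16.3% and 19.6% of all genes. All 12 were among the 27. In what follows, fell means an adjusted p under 0.05 with the block, and a gene is said to hold after scaling where it was one of the 12. Values in threes are replicates 1 to 3, static before FSS. A role holds 4 to 8 genes, and its counts were not tested against the shares of all genes.

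**Figure D2:**
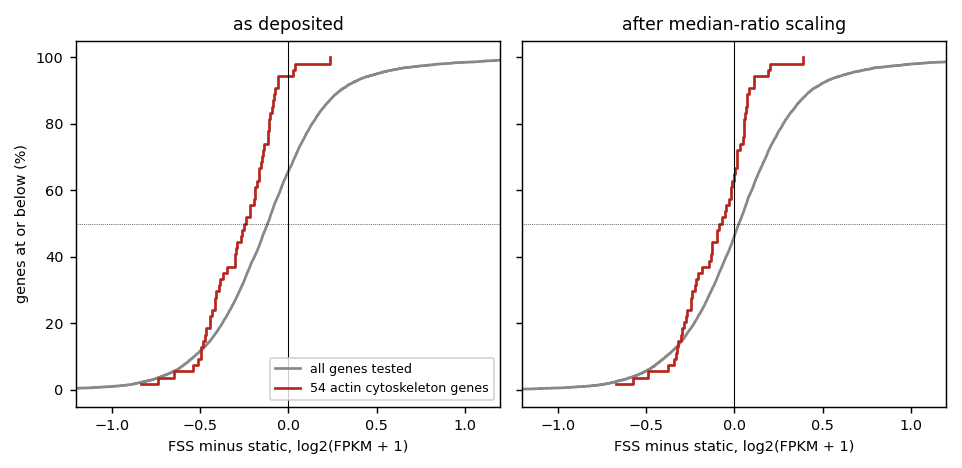
Share of genes (vertical axis, percent) at or below each difference between FSS and static (horizontal axis, log2(FPKM + 1)), for the 54 actin cytoskeleton genes (red) and all genes tested (grey), as deposited (left) and after median-ratio scaling (right). The red median lies at -0.25 on the left and -0.079 on the right, and the grey median at -0.12 and 0.026; genes beyond the axis are not drawn.

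After the median-ratio scaling the pairs parted. Values were divided by factors of 1.02, 1.10 and 1.05 in static and 0.950, 1.03 and 0.852 in FSS replicates 1 to 3. FSS replicate 3 was thus raised most, and with it pair 3. The median member gave -0.22 in pair 1, -0.10 in pair 2 and 0.010 in pair 3, where the median of all genes gave 0.015, 0.014 and 0.038. The difference turned from below to above 0 in 17 members, named with their values in the closing section. After scaling, 21 of 54 genes (38.9%) were lower in all 3 pairs and 3 (5.56%) higher, against 29.6% and 35.3% of all genes. The members are also abundant RNAs, with a median of 121 FPKM against 10.5 FPKM for all genes tested. As deposited, the 7522 genes at or above the lowest member's mean FPKM had a median of -0.14 log2, with 68.1% below 0. All genes gave -0.12 and 65.8%, and the members -0.25 and 94.4%. Static mean FPKM and the FSS difference gave a Spearman correlation of -0.17 across all genes and -0.055 across the members. The part of abundance in the counts was not tested.

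Of the 5 genes for actin and its monomer-binding proteins, 4 fell with the block and none held after scaling (25.1% and 16.3% of all genes). Actb, cytoplasmic beta-actin and the third most abundant of all genes tested, stood at 7891, 7549 and 8781 FPKM in static replicates 1 to 3 and at 4827, 5885 and 6893 FPKM under FSS. All 3 FSS values lay under all 3 static ones, with means of 8073 ± 636 and 5868 ± 1033 FPKM (SD, n = 3), a change of -27.3%. Its log2 difference was -0.47 ± 0.17 (SE; limma adjusted p = 0.202, 0.00339 with the block and 0.157 with block and scaling). Actg1, which encodes gamma-actin, the other cytoplasmic actin, gave 2775, 2816 and 3379 FPKM in static and 1889, 2358 and 2614 FPKM in FSS libraries. These groups did not overlap either (log2 change -0.39 ± 0.18, SE; limma adjusted p = 0.3, 0.0042 with the block). The nucleotide sequences of the cytoplasmic actins are much alike and have many processed pseudogenes, so the division of reads between Actb and Actg1 is uncertain; Tmsb4x has pseudogene copies too.

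Tmsb4x, the thymosin that sequesters monomers in most cells, was the most abundant member after Actb. Its levels were 5979.9, 6188 and 3674 FPKM in static and 4779.6, 5434 and 3325 FPKM in FSS replicates 1 to 3. Replicate 3 was lowest in both groups, so the groups overlapped, while each pair was lower under FSS (-0.32, -0.19 and -0.14 log2; limma adjusted p = 0.75, and 0.0128 with the block). Pfn1, profilin, went the other way between replicates, with 840.2, 889 and 1179 FPKM in static and 599, 729.6 and 1073 FPKM in FSS libraries and replicate 3 highest in each group. It too fell only with the block (log2 difference -0.30; limma adjusted p = 0.601 without and 0.021 with it). Tmsb10, another thymosin, gave 527, 664 and 789.5 FPKM and 553, 596 and 743 FPKM, lower in 2 pairs and higher in pair 1. Its interval with the block ran from -0.22 to 0.10 log2, which includes 0.

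Serum response factor, with its actin-sensing cofactors of the MRTF family, is a textbook regulator of actin genes and binds a sequence called the CArG box. The members' promoters (250 bases before to 50 after each start, RefSeq, GRCm38.p6) were searched for this box. The motif is its own reverse complement, so that a single search covers both strands. The table held 45 of the 54 members (not Actb, Rac1, Rac2, Rock1, Pak2, Diaph1, Marcks, Lsp1 or Coro1b), and 3 of these (6.67%) carried a CArG box, against 488 of 27025 genes (1.81%). The 3 windows, each 150 bases of the gene's own strand read 5′ to 3′, are shown because they hold these matches, in capitals.
Actg1, chr11:120348506-120348655, minus strand: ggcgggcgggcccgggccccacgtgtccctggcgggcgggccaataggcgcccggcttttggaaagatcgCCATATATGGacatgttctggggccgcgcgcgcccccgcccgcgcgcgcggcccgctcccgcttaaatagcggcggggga
Arpc4, chr6:113377863-113378012, plus strand: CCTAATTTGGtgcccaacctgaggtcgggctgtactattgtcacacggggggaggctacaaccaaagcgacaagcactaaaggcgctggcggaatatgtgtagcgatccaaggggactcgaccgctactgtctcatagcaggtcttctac
Myl6, chr10:128493010-128493159, minus strand: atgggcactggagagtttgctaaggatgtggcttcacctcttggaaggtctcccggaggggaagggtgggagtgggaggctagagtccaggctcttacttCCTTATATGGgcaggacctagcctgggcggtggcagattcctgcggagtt
The windows run from 160 to 11 bases before the start in Actg1, from 250 to 101 in Arpc4 and from 150 to 1 in Myl6. The first base of the box lies 90 bases before the start in Actg1, 250 in Arpc4 and 50 before 1 of 2 listed starts in Myl6. Actg1 and Arpc4 fell with the block and Myl6 did not pass (limma adjusted p = 0.238 with it). A match is a string of letters and not a measured binding site, and the deposited files name no build. The members were chosen as actin genes, and a part of serum response factor in their FSS difference was not tested.

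From a list of 21 genes for serum response factor, its cofactors and their classical targets, 11 were tested. None passed without the block. With it 5 fell (Srf, Vcl, Zyx, Egr1 and Flna, the last also in the list of other actin regulators) and none rose, while 3 fell and 2 rose after scaling. Of all genes 25.1% fell and 7.73% rose with the block, and 16.3% and 19.6% after scaling. Srf itself stood at 13.2, 13.6 and 19.9 FPKM in static and 7.82, 10.0 and 10.4 FPKM in FSS libraries, with no overlap (limma adjusted p = 0.00558 with the block, 0.155 without). Vcl, vinculin, which ties actin to integrin adhesions, gave 47.5, 51.5 and 65.9 and 30.7, 36.6 and 32.0 FPKM (with the block, limma adjusted p = 0.00491). Of the cofactors, Mkl1 was listed at 35.5, 33.9 and 25.2 FPKM and 33.3, 32.2 and 16.2 FPKM and Mkl2 at 31.2, 34.3 and 24.9 FPKM and 55.3, 41.7 and 25.03 FPKM, neither passing with the block alone. Mkl2 and Acta2, the smooth muscle actin gene, were the pair that rose after scaling (limma adjusted p = 0.01 and 0.0214 with block and scaling, 0.0968 and 0.0702 with the block alone). Acta2 was close to the filter on low values, at 1.13, 1.01 and 0.900 FPKM in static and 1.41, 1.55 and 1.33 FPKM in FSS libraries, without overlap.

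**Figure D3:**
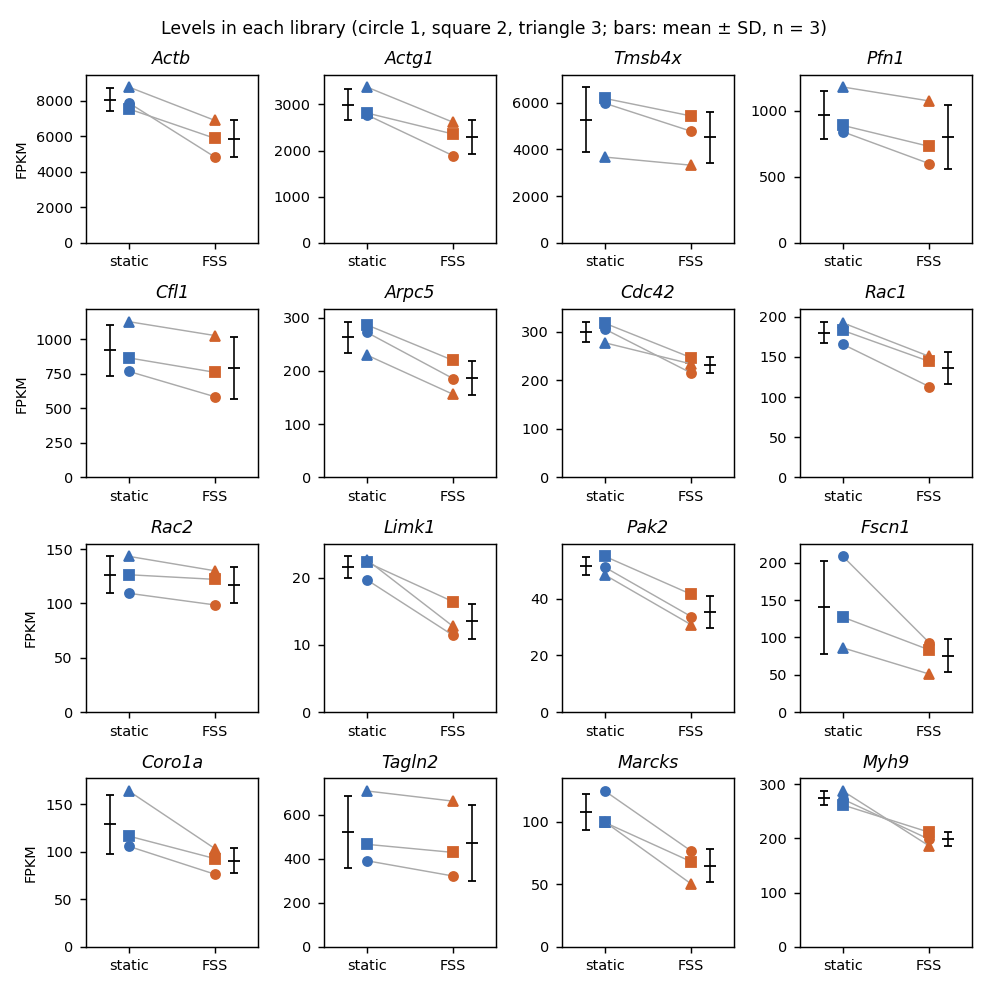
FPKM (vertical axes, from 0) of 16 members in the 3 static (blue) and 3 FSS (orange) libraries; circles, squares and triangles are replicates 1, 2 and 3, grey lines join libraries of one number, and black bars are the mean ± SD (n = 3). In Actb, Arpc5, Limk1, Pak2, Marcks and Myh9 every FSS point lies below every static one, while in Pfn1, Cfl1 and Tagln2 the triangles sit highest in both groups.

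The Arp2/3 complex builds branched networks from 7 subunits, 2 of them actin-related proteins (Actr2 and Actr3). Of its 8 genes, 5 fell with the block and 1, Arpc5, held after scaling (25.1% and 16.3% of all genes). Arpc5, the p16 subunit, stood at 272, 286 and 229.8 FPKM in static and 186, 219.7 and 156 FPKM in FSS replicates 1 to 3. There was no overlap, and the mean went from 263 ± 29.5 to 187 ± 31.9 FPKM (SD, n = 3; log2 difference -0.50 ± 0.19, SE; limma adjusted p = 0.217, 0.00359 with the block). Actr3 gave 301, 302 and 270.0 FPKM in static and 212, 243 and 214 FPKM in FSS libraries, also without overlap (limma adjusted p = 0.239, 0.00833 with the block). Actr2, Arpc4 and Arpc2 fell with the block as well, with log2 differences of -0.41, -0.41 and -0.27. Arpc2 encodes the large scaffold subunit at the core of the complex.

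The other 3 genes of the complex did not pass. Arpc3 gave means of 218 and 207 FPKM. Arpc1a and Arpc1b encode alternative versions of one subunit, of which Arpc1b is the one rich in blood cells. Arpc1b stood at 285, 324 and 383 FPKM in static and 289, 324 and 406 FPKM in FSS libraries, with a log2 difference of 0.036 and an interval with the block from -0.12 to 0.19. Arpc1a gave 38.6, 37.3 and 48.8 FPKM and 31.7, 35.6 and 36.4 FPKM; its groups did not overlap, yet it missed the threshold with the block (limma adjusted p = 0.0916). Within a library, Arpc1b exceeded Arpc1a 7.38, 8.69 and 7.85 times in static and 9.11, 9.10 and 11.2 times in FSS replicates 1 to 3, so the ratio was higher in every FSS library. On the FPKM scale the subunits of static libraries ranged from a mean of 41.6 (Arpc1a) to 348 (Arpc2).

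Arp2/3 is switched on by WASP-family proteins, and formins nucleate without it. Diaph1, the formin mDia1 that acts downstream of RhoA, stood at 96.3, 106 and 120.0 FPKM in static and 69.9, 86.5 and 79.9 FPKM in FSS libraries. The groups did not overlap, and the gene fell with the block and held after scaling (log2 difference -0.44 ± 0.17, SE; limma adjusted p = 0.225, 0.00996 with the block, 0.0378 with both). Wipf1, which encodes WIP, the partner that stabilises WASP, also fell and held after scaling, with overlapping groups and means of 46.2 ± 6.64 and 34.4 ± 7.94 FPKM (SD, n = 3). Wasf2, a subunit of the WAVE complex that links Rac to Arp2/3, gave 39.3, 41.8 and 47.9 FPKM and 31.4, 37.6 and 31.8 FPKM and fell with the block (limma adjusted p = 0.0432), not after scaling (0.135).

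Neither WASP gene passed with the block alone. Was, the WASP of blood cells, gave 21.1, 22.1 and 27.5 FPKM in static and 16.1, 18.1 and 25.1 FPKM in FSS libraries, lower in each pair and not past the threshold (limma adjusted p = 0.0745 with the block). Wasl, the widely expressed N-WASP, gave 11.6, 11.7 and 7.96 FPKM and 15.4, 15.4 and 7.63 FPKM. It was higher in pairs 1 and 2 by 0.38 and 0.37 log2 and at -0.054 in pair 3. Wasl was the 1 member that rose with block and scaling (limma adjusted p = 0.0104; 0.16 with the block alone), and it also rose with the block when both libraries numbered 3 were left out (limma adjusted p = 0.0116). Was was 1.82, 1.89 and 3.45 times as high as Wasl in static and 1.04, 1.17 and 3.29 times in FSS replicates 1 to 3.

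Among small GTPases and their DOCK exchange factors, 2 of 6 genes fell with the block and neither held after scaling. The shares of all genes were 25.1% and 16.3%. Cdc42, which drives filopodia and, in immature dendritic cells, the engulfing of fluid, stood at 305, 317 and 277 FPKM in static and 215, 246 and 233 FPKM in FSS libraries. All FSS values were below all static ones (log2 difference -0.37 ± 0.15, SE; limma adjusted p = 0.257, 0.011 with the block). Rac1, which drives sheet-like protrusions, gave 166, 183 and 192 FPKM and 113, 144 and 151 FPKM, without overlap (limma adjusted p = 0.272, 0.00873 with the block). Rac2, its relative of blood cells, gave 109, 126 and 143 FPKM and 98.6, 122 and 130.01 FPKM, an overlap of the groups with an interval from -0.29 to 0.070 log2 with the block. Relative to Rac1 in the same library, Rac2 was at 0.660, 0.692 and 0.746 in static and at 0.873, 0.846 and 0.864 in FSS libraries. The 3 FSS ratios all lay above the 3 static ones.

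Rhoa, the GTPase of contraction, stood at 209.9, 211 and 253 FPKM in static and 179, 192 and 238 FPKM in FSS libraries. It was lower in each pair and did not pass (limma adjusted p = 0.745, 0.151 with the block), and its sign turned with scaling (0.017 log2). Dock2, the exchange factor that activates Rac in leukocytes, gave 91.5, 117 and 96.2 FPKM and 85.4, 107 and 77.8 FPKM. Dock8, which activates Cdc42 in migrating dendritic cells, gave 26.3, 30.5 and 27.7 FPKM and 31.5, 33.9 and 22.1 FPKM, higher in pairs 1 and 2 and lower in pair 3. Neither exchange factor passed with the block (limma adjusted p = 0.141 and 0.877).

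Of 7 genes for kinases and a phosphatase below the GTPases, 3 (Limk1, Pak2 and Rock2) fell with the block and held after scaling. The rest did not pass, and the shares of all genes were 25.1% and 16.3%. Limk1, a kinase that phosphorylates and so silences cofilin, stood at 19.7, 22.3 and 22.7 FPKM in static and 11.4, 16.4 and 12.7 FPKM in FSS replicates 1 to 3. Its groups were far apart (log2 difference -0.65 ± 0.18, SE; limma adjusted p = 0.116, 0.00471 with the block and 0.00383 with both), and this was the smallest adjusted p among the 54 genes without the block. Limk2, with the same activity, gave 8.63, 7.00 and 6.09 FPKM and 7.54, 7.46 and 5.48 FPKM, a log2 difference of -0.074 whose sign turned with scaling. Limk2 stood at 0.439, 0.314 and 0.269 of the Limk1 level in static and 0.661, 0.455 and 0.430 in FSS libraries, higher in each pair although the groups overlapped.

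Pak2, a kinase activated by Rac and Cdc42, gave 51.1, 55.0 and 48.4 FPKM in static and 33.7, 41.6 and 30.8 FPKM in FSS libraries, without overlap (log2 difference -0.54 ± 0.17, SE; limma adjusted p = 0.16, 0.00537 with the block). Pak1 was low at 4.64 to 6.82 FPKM over all libraries, and did not pass. Rock1 and Rock2 encode the kinases through which RhoA drives myosin. Rock2 fell with the block, from 20.9, 22.7 and 12.9 FPKM in static to 16.4, 17.0 and 8.22 FPKM in FSS libraries (limma adjusted p = 0.0136, and 0.527 without the block). Rock1 gave 31.8, 33.4 and 20.8 FPKM and 32.2, 31.4 and 15.9 FPKM, short of the threshold (limma adjusted p = 0.324 with the block). Both Rock genes were lowest in replicate 3 of each group. Their ratio, Rock1 over Rock2, was 1.52, 1.47 and 1.61 in static and 1.97, 1.85 and 1.93 in FSS libraries, without overlap. Ssh1, the phosphatase that reactivates cofilin, had means of 19.3 and 18.2 FPKM and did not pass.

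Each of 6 severing and capping genes was lower in all 3 pairs as deposited, as were 47.3% of all genes. Capza1 and Capzb turned to just above 0 with scaling. Of the 6, 3 fell with the block and Capza2 held after scaling (25.1% and 16.3% of all genes). Cfl1, cofilin, stood at 769, 866 and 1129 FPKM in static and 584, 761 and 1028 FPKM in FSS libraries, replicate 3 being highest in each group (limma adjusted p = 0.696, 0.0341 with the block). Capg, a gelsolin relative of macrophages and dendritic cells that caps filaments without cutting them, behaved likewise, at 439, 498 and 705 FPKM and 336, 401 and 621 FPKM (with the block, limma adjusted p = 0.0164). Capza1 and Capza2 encode alternative alpha subunits of capping protein and Capzb the beta subunit. Capza2 gave 154, 148 and 121 FPKM in static and 108, 108 and 81.6 FPKM in FSS libraries, without overlap (log2 difference -0.51 ± 0.19, SE; limma adjusted p = 0.204, 0.00358 with the block). Capza1 and Capzb did not pass, with log2 differences of -0.15 and -0.095. Capza2 exceeded Capza1 1.45, 1.35 and 1.45 times in static and 1.18, 1.05 and 1.08 times in FSS libraries. Gsn, gelsolin, which cuts and caps, had means of 97.3 and 83.7 FPKM and missed the threshold (limma adjusted p = 0.0725 with the block).

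All 8 bundling, crosslinking and coronin genes were lower in each pair as deposited, as were 47.3% of all genes. On average Actn4, Lsp1 and Tagln2 turned to just above 0 with scaling. The 3 that fell with the block, Fscn1, Actn1 and Coro1a, held after scaling (25.1% and 16.3% of all genes). Fscn1 encodes fascin, the bundling protein that dendritic cells gain as they mature. Its levels were 209, 127 and 86.1 FPKM in static and 93.0, 83.4 and 51.0 FPKM in FSS replicates 1 to 3. The spread within groups was wide, with static replicate 3 below FSS replicate 1, yet every pair was lower (-1.16, -0.60 and -0.74 log2). The mean changed by -46.1%, the largest relative fall of the 54 genes (limma adjusted p = 0.268, 0.00269 with the block, 0.0038 with both). Actn1, an alpha-actinin, gave 149.8, 137 and 105 FPKM and 104, 106 and 69.3 FPKM (with the block, limma adjusted p = 0.00537). Its relative Actn4 had means of 80.5 and 73.7 FPKM and did not pass.

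Coro1a, the coronin of leukocytes, stood at 106, 116 and 164 FPKM in static and 76.2, 92.6 and 103 FPKM in FSS libraries, without overlap (log2 difference -0.49 ± 0.22, SE; limma adjusted p = 0.296, 0.00757 with the block). Coro1b, found in most cells, did not pass (log2 difference -0.19). Coro1a over Coro1b was 0.953, 1.04 and 1.17 in static and 0.843, 0.890 and 0.824 in FSS libraries, lower in every FSS library. Lcp1, the leukocyte bundler L-plastin, gave 457, 494 and 427 FPKM and 363, 440.3 and 399.6 FPKM and missed the threshold (limma adjusted p = 0.0732 with the block). Tagln2, transgelin-2, which stabilises filaments, gave 391, 465 and 707 FPKM and 321, 428 and 661 FPKM. Replicate 3 was far above replicates 1 and 2 in both groups of Tagln2, and the pair differences were small (-0.28, -0.12 and -0.097 log2; interval with the block -0.33 to -0.0055, limma adjusted p = 0.0999). Lsp1, a leukocyte protein that binds filaments, stood at means of 367 and 343 FPKM and did not pass.

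Among membrane linkers 3 of 5 genes fell with the block, and Marcks held after scaling (25.1% and 16.3% of all genes). Marcks, a protein kinase C substrate that ties actin to the plasma membrane, stood at 125, 99.5 and 99.99 FPKM in static and 76.7, 68.1 and 50.3 FPKM in FSS libraries. There was no overlap, and the mean went from 108 ± 14.4 to 65.0 ± 13.4 FPKM (SD, n = 3; log2 difference -0.74 ± 0.21, SE; limma adjusted p = 0.117, 0.00276 with the block and 0.00176 with both). Its small relative Marcksl1 gave 262, 212 and 137 FPKM and 242, 222 and 126 FPKM and did not pass. Marcks over Marcksl1 was 0.476, 0.470 and 0.729 in static and 0.317, 0.307 and 0.4003 in FSS libraries. Of the ERM proteins, which link filaments to membrane receptors, Msn (moesin, the main one of leukocytes) gave 339.6, 327 and 381 FPKM and 269.6, 284 and 299 FPKM without overlap (limma adjusted p = 0.0172 with the block). Rdx, radixin, fell with the block as well (log2 difference -0.30), and Ezr, ezrin, did not (log2 difference -0.13).

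Non-muscle myosin II pulls on filaments. Myh9, its heavy chain, stood at 272, 262 and 288 FPKM in static and 198, 211 and 186 FPKM in FSS replicates 1 to 3. Spread within each group was small and the groups lay apart (means 274 and 199 FPKM, n = 3; log2 difference -0.46 ± 0.15, SE; limma adjusted p = 0.161, 0.00639 with the block). It held after scaling. None of the 3 light chain genes passed. Myl12a gave 231, 236 and 245 FPKM and 188, 207 and 233 FPKM, Myl12b 118, 139.8 and 149 FPKM and 102, 121 and 139.5 FPKM, and Myl6 had means of 691 and 646 FPKM. Myl12a and Myl12b are close copies of one another, so their separate levels are uncertain.

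A ratio of genes of one library does not change with library scaling, and 16 such ratios were formed between related members, most of them paralogs. In 7 of the 16 (43.8%) the FSS and static groups did not overlap, 4 lying lower (25%) and 3 higher (18.8%) under FSS. Ratios of other genes were not formed, so these shares have no background of their own; of single genes, 20.4% lay lower and 5.1% higher without overlap. Rac2 over Rac1, Rock1 over Rock2 and Arpc1b over Arpc1a were higher under FSS, at 0.30, 0.32 and 0.29 log2. Marcks over Marcksl1, Pak2 over Pak1, Capza2 over Capza1 and Coro1a over Coro1b were lower, at -0.69, -0.45, -0.36 and -0.30 log2. With 3 libraries a group the exact two-sided permutation test cannot go below p = 0.1, the value all 7 reached (0.229 adjusted over the 16 ratios), so none can pass. Actb over Actg1 was 2.84, 2.68 and 2.60 in static and 2.56, 2.50 and 2.64 in FSS libraries, an overlap, and Myl12a over Myl12b differed by -0.019 log2.

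**Figure D4:**
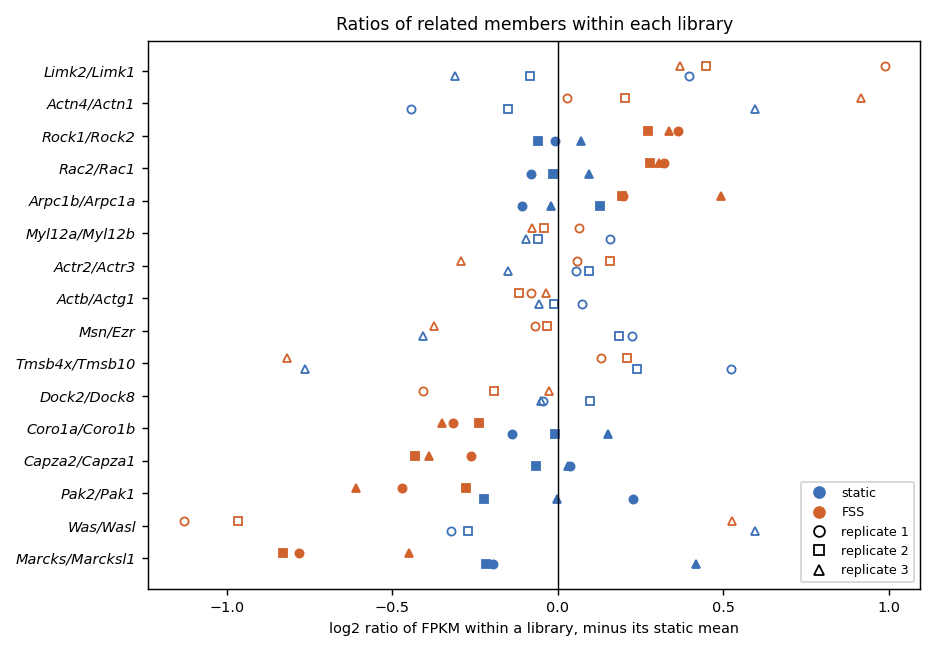
Ratios of related members within each library (log2 of the FPKM ratio, horizontal axis, with the mean of the static libraries set to 0), static in blue and FSS in orange; circles, squares and triangles are replicates 1, 2 and 3. Filled symbols mark the 7 ratios whose groups do not overlap, 3 of them higher and 4 lower under FSS.

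Many members also differed between replicate numbers. In a model that also held the group, 18 of the 54 were higher (33.3%) and 14 lower (25.9%) in libraries numbered 3 than in numbers 1 and 2 (limma adjusted p under 0.05), against 13.7% and 29.3% of all genes. The largest rises were in Tagln2 (0.78 log2), Capg (0.67), Ezr (0.61), Pfn1 (0.57) and Cfl1 (0.55). The largest falls were in Fscn1 (-0.84), Marcksl1 (-0.83), Rock2 (-0.82), Rock1 (-0.79) and Wasl (-0.71). Of the 27 genes that fell with the block, 7 were higher in number 3, 9 were lower and 11 showed neither, Limk1 (0.0060) and Myh9 (-0.015) among the last. Over all genes with a known transcript length, longer transcripts went with lower values in number 3 (Spearman -0.29 across 10710 genes, -0.22 across the 54 members), while length and the FSS difference gave 0.026 across all genes and -0.27 across the members. These correlations describe genes of the same 6 libraries, which are not independent. With the block and without both libraries numbered 3, 29 of the 54 fell and 1 rose, against 24.5% and 14.3% of all genes.

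**Figure D5:**
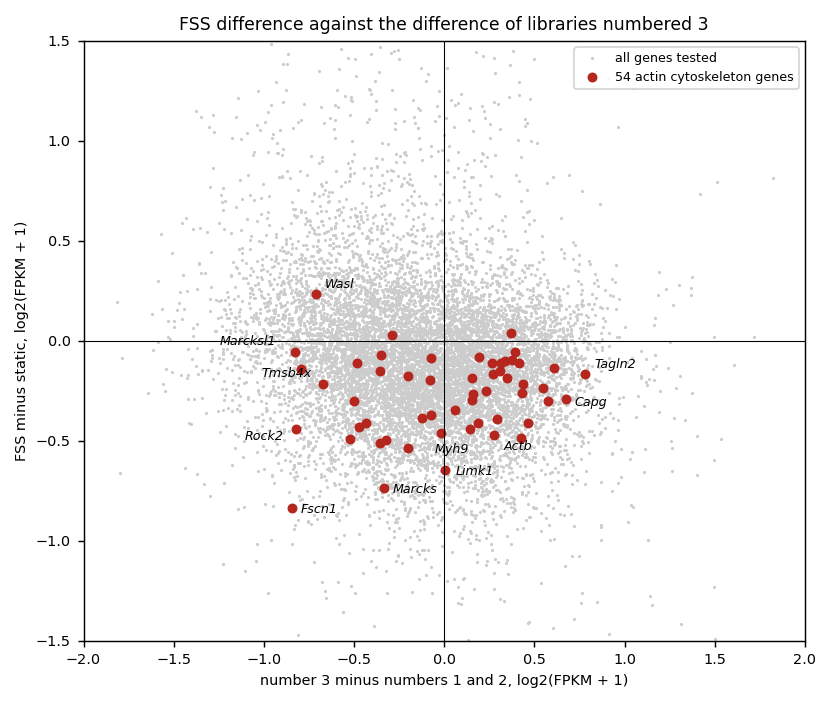
Difference between FSS and static (vertical axis) against the difference between libraries numbered 3 and numbers 1 and 2 (horizontal axis), both on the log2(FPKM + 1) scale, for the 54 members (red) and all genes tested (grey); grey genes beyond the axes are not drawn. The members spread from -0.84 to 0.78 along the horizontal axis, a wider range than along the vertical one, and all but 3 lie below 0 on the vertical axis.

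Other actin regulators from a list fixed beside the members (93 tested) had a median difference of -0.25 log2. None passed without the block. With it 38 fell and 5 rose (40.9% and 5.38%, against 25.1% and 7.73% of all genes). After scaling 19 fell and 14 rose (20.4% and 15.1%, against 16.3% and 19.6% of all genes), a balance that thus depends on the scaling. The 5 falls with the smallest adjusted p were in Myo1e, a membrane-bound class I myosin (173 ± 12.6 to 95.6 ± 18.6 FPKM, SD, n = 3; limma adjusted p = 0.0012 with the block), Myo9a, a myosin with a GTPase-activating domain (-0.79 log2), Cdc42se1, a small effector of Cdc42 (-0.84), Twf1, twinfilin, which binds monomers and ends (-0.79), and Coro2a, another coronin (-0.75). Among those that rose were Rhof, a GTPase of filopodia, Abi3, an adaptor of the WAVE complex, Vav1, an exchange factor of blood cells, and Ssh2, a cofilin phosphatase. Rhof stood at 13.1, 23.0 and 15.2 FPKM in static and 48.3, 47.4 and 30.4 FPKM in FSS libraries, without overlap (log2 difference 1.26 ± 0.27, SE; limma adjusted p = 0.0649, 0.0023 with the block). Abi3 gave 1.98, 3.40 and 1.98 FPKM and 7.93, 6.68 and 4.54 FPKM, and Vav1 14.3, 18.2 and 15.7 FPKM and 31.4, 33.6 and 20.4 FPKM, both without overlap. Ssh2 overlapped between the groups, at a log2 difference of 0.37.

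Actb serves in many laboratories as a reference gene, and 16 such genes were listed for comparison. With the block 5 of the 16 fell and 3 rose, against 25.1% and 7.73% of all genes. The median of the 16 was -0.069 log2 and turned to 0.089 with scaling. Gapdh stood at 1645, 1784 and 3123 FPKM in static and 1675, 2022 and 3777 FPKM in FSS libraries, short of the threshold (limma adjusted p = 0.0729 with the block), and B2m gave means of 1620.0 and 1587 FPKM.

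Leaving each replicate number out of the blocked fit in turn, 16 of the 27 genes fell in all 3 fits. Without number 1, 2 or 3, 15.5%, 18.7% or 24.5% of all genes fell and 4.24%, 5% or 14.3% rose, while 16, 24 or 29 of the 54 members fell and 0, 0 or 1 rose. The 16 were Actb, Actg1, Tmsb4x, Actr2, Actr3, Arpc5, Diaph1, Limk1, Pak2, Rock2, Capza2, Fscn1, Actn1, Coro1a, Marcks and Myh9. Of these, 11 also held after scaling, and in 8 of the 11 the static and FSS groups did not overlap: Arpc5, Diaph1, Limk1, Pak2, Capza2, Coro1a, Marcks and Myh9. These steps reuse the same 6 libraries. The share of all genes that passes them together was not computed, so the counts of 16, 11 and 8 have no background. Over all 54 genes, FSS was below static without overlap in 17 (31.5%) and above it in none, against 20.4% and 5.1% of all genes tested.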

How the data were processed

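RNA of 3 static and 3 FSS libraries was compared, grouped and numbered by the submitters' titles. Per the submitters' processing notes HISAT and Bowtie2 were used, the quantifier, annotation and build being not given in the sources used here. The authors deposited expression values without a unit, taken as FPKM because library totals differ and values times transcript length, summed and divided by the constant expected of FPKM, gave 0.552 to 0.609 with median and 1.14 to 1.28 with longest transcript lengths of GENCODE M21. The 6 per-sample tables were identical to the series table. Of 22899 genes 4828 were blank in all libraries. Low values showed no steps of whole reads, so depth and counting error are unknown.

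The 10899 genes that reached 1 FPKM in 3 or more libraries were tested on log2(FPKM + 1) with limma 3.58.1 in R 4.3.3 (trend, two-sided, Benjamini-Hochberg over all genes, threshold 0.05), without and with the replicate number as a block (10871 genes passed the same filter after median-ratio scaling); fold changes of low genes are understated on this scale. Libraries of one number deviated together from their group means (Pearson 0.79, 0.66 and 0.87 across genes, and 0.87, 0.76 and 0.92 across the members), so the numbers were taken as pairs. Static 1 with FSS 2 gave 0.22 across genes and 0.66 across the members, and static 2 with FSS 1 gave 0.28 and 0.56. Number 3 with 1 or 2 was negative throughout. Deviations of 3 libraries from their own mean cancel out, so these correlations depend on each other and the negative ones are partly forced. Among the members numbers 1 and 2 are less clearly told apart. The labels do not say what a number shares. A fit with group and number 3 described the libraries numbered 3. Ratios of members were compared by exact permutation (scipy 1.17.1). Alternatives were the pseudocount, the filter, the threshold, 2 scalings, the block, and each library or number left out. The members, lists and ratios were chosen with earlier results of these data known. All members are named; every library's values are given for 14 preset genes and up to 2 more per role by smallest adjusted p without the block, and for Arpc1a, Arpc1b, Wasl, Limk2, Rock1, Rock2, Marcksl1, Srf, Vcl, Mkl1, Mkl2, Acta2, Mertk and Gapdh, chosen after their values were seen. Of the other regulators, the rule names the 5 smallest adjusted p in each direction with the block; 1 gene it names is not reported here. In 5 members (Pfn1, Arpc4, Dock2, Dock8 and Actn4) another protein-coding gene overlaps the locus in the RefSeq gene table, and reads may be shared.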

Additional observations from a re-analysis of the deposited data

How the results depend on the processing

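Compared as plain groups, no member passed under any pseudocount, filter, threshold, scaling or single library left out that was run. With the replicate number as a block 27 fell and none rose, with block and median-ratio scaling 12 fell and 1 rose, and with the block and number 1, 2 or 3 left out 16, 24 or 29 fell and 0, 0 or 1 rose (of all genes 15.5, 18.7, 24.5% fell and 4.24, 5, 14.3% rose). The blocked count of 27 went to 16 without a filter (8.58% of all genes) and to 16 at an adjusted p of 0.01 (11.3%). The median over the members moved from -0.25 to -0.079 with median-ratio scaling, with or without the block. In libraries numbered 3, at an adjusted p of 0.01 the count lower went from 14 to 8 (15% of all genes) and the count higher from 18 to 5 (5.04%), and the latter was 9 without a filter (6.27%) and 9 with equal totals (10.4%). Of the 16 ratios, 7 had groups without overlap, and 7 to 11 did with one library left out; leaving one out makes overlap less likely by construction.

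The block moved 27 members past the threshold. Each number occurs in both groups, so the block leaves every difference unchanged and no direction could turn. The labels do not say what a number shares, so that the pairing rests on the data.

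With median-ratio scaling, and the same with the block added, 17 members turned from below to above 0 on the log2 scale: Tmsb10 0.11, Arpc3 0.084, Rac2 0.055, Rhoa 0.017, Rock1 0.017, Pak1 0.057, Limk2 0.072, Ssh1 0.049, Capza1 0.015, Capzb 0.073, Actn4 0.053, Lsp1 0.065, Tagln2 0.0025, Ezr 0.032, Marcksl1 0.11, Myl6 0.059 and Myl12b 0.00088. With equal totals these were Tmsb10 0.0083 and Marcksl1 0.0067. With a library, or a number in the blocked fit, left out, 16 members took both signs: Tmsb10 -0.21 to 0.081, Arpc1b -0.099 to 0.15, Arpc3 -0.19 to 0.012, Rac2 -0.21 to 0.0046, Dock8 -0.089 to 0.21, Rock1 -0.35 to 0.18, Pak1 -0.19 to 0.050, Limk2 -0.18 to 0.056, Ssh1 -0.23 to 0.12, Capzb -0.21 to 0.040, Actn4 -0.23 to 0.033, Lsp1 -0.23 to 0.023, Tagln2 -0.44 to 0.077, Ezr -0.28 to 0.13, Marcksl1 -0.32 to 0.23 and Myl6 -0.28 to 0.025. Among blocked fits these included Dock8 -0.084 without number 1, Dock8 -0.032 without number 2, Pak1 0.021 without number 2 and Ssh1 0.027 without number 3. For none of these was the cause tested.

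Only 3 libraries a group and an unknown read depth limit the precision. The unit was inferred, the length correction assumes it, and whether reads shared by copies such as Actb and its pseudogenes were divided or dropped is not known. Rescaling changes how many genes of the whole table lie above or below 0, so the balance of lower and higher members is relative to the scaling chosen.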
